A study of Mus musculus with 31 samples.

Results

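Integrins and laminins were measured as 34 genes of the 18194 genes on the array. Members were all genes whose symbol in the platform's gene table names an integrin alpha or beta chain or a laminin alpha, beta or gamma chain, on probe sets that carry 1 symbol. A probe set is the group of short DNA probes that reads 1 transcript, and where a gene had several, the brightest on average across the 31 arrays was used. The set held 16 integrin alpha chains, 8 integrin beta chains, 5 laminin alpha chains, 3 laminin beta chains and 2 laminin gamma chains, and 8 of the 34 genes had a mean level among the dimmest 33.3% of all genes.

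The arrays measured RNA of iPSCs, induced pluripotent stem cells made here from mouse fibroblasts, and of embryoid bodies, which are the aggregates such cells form when left to differentiate. The 4 groups were control iPSCs at day 0 (10 arrays), Nos3-/- iPSCs at day 0 (6 arrays), control embryoid bodies at day 11 (9 arrays) and Nos3-/- embryoid bodies at day 11 (6 arrays). Control cells came from wild type CD1 mice and Nos3-/- cells from the strain B6.129P2-Nos3tm1unc/J, so that genotype and strain cannot be told apart. In all groups the starting cells were tail-tip fibroblasts of adult males, reprogrammed with Sendai virus, and the pluripotent cells were kept on growth-arrested feeder fibroblasts of mouse embryos before aggregation in microwells. Nos3 encodes the nitric oxide synthase of the endothelium. Neither the number of animals nor the number of clones behind the arrays of a group is given in the sources used here, so the p-values measure the spread between arrays, which may in part be technical.

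Integrins are receptors of 1 alpha and 1 beta chain that span the cell membrane and tie the matrix outside to the actin skeleton inside. Laminins are cross-shaped proteins of 1 alpha, 1 beta and 1 gamma chain that form the sheet of the basement membrane, and several integrins bind them. In the early embryo and in embryoid bodies, endoderm cells lay down a laminin sheet on which the inner cells become polarised. Neither family works as single chains, so partner chains are described side by side below.

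The labels were checked on marker genes. Pou5f1, a core factor of pluripotency, ran from 12.35 to 12.79 in control at day 0 and from 10.83 to 12.15 at day 11. In Nos3-/- it ran from 11.55 to 12.99 at day 0 and from 12.00 to 12.94 at day 11, so that it does not separate the days there. Tnnt2 of heart muscle ran from 4.17 (median 5.44) to 6.30 at day 0 and from 8.40 (9.82) to 12.18 at day 11 in control (adjusted p = 1.97e-07, by the fit described below). In Nos3-/- it ran from 4.05 (4.89) to 5.75 and from 5.05 (10.12) to 11.82 (adjusted p = 4.71e-05), and the lowest day 11 array lay within the day 0 range. Nos3 itself had medians of 6.62 (control) and 7.06 (Nos3-/-) at day 0 and of 7.05 and 6.91 at day 11, and whether its probe set reads the altered part of the gene is not given, so it checks nothing. Replicate 3 of Nos3-/- at day 11 stood apart, with a median correlation of 0.961 to the other arrays of its group, and replicates 3 and 5 of Nos3-/- at day 0 were next at 0.975 and 0.976. All levels below are log2 intensities, a difference of 1 is a factor of 2, and levels of different genes are not compared because probe sets differ in brightness. The files hold no detection calls, and an array intensity has no true 0.

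A gene passed where limma, a linear model with a shared variance estimate across genes, gave a Benjamini-Hochberg adjusted p under 0.05 over all 18194 genes. In Nos3-/- against control at day 0, 1 member passed as higher (2.94%, against 9.17% of all genes) and 5 as lower (14.7%, against 7.47%). At day 11, 4 passed as higher (11.8%, against 4.41%) and 5 as lower (14.7%, against 5.29%). From day 0 to day 11, 5 rose (14.7%, against 16.0%) and 10 fell (29.4%, against 18.2%) in control, and 7 rose (20.6%, against 13.0%) and 6 fell (17.6%, against 18.1%) in Nos3-/-. The median difference between genotypes over the 34 members was -0.19 at day 0 (0.01 over all genes) and -0.05 at day 11 (0.00), and the median change over time was -0.10 in control (-0.03) and -0.05 in Nos3-/- (-0.06). In all, 24 members passed in at least 1 of these 4 comparisons (70.6%, against 54.8% of all genes) and 10 in none, and Itga9 was the 1 member that passed between genotypes on both days (2.94%, against 3.76%). Leaving out 1 array moved the count at day 0 from 6 to between 4 and 11, with 10 without control replicate 1 or 9 and 11 without Nos3-/- replicate 3. At day 11 it moved from 9 to between 3 and 11, with 4, 5 and 3 without Nos3-/- replicates 1, 2 and 4 and 5 without control replicate 9.

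Of the 10 laminin chains, 1 passed as higher in Nos3-/- at day 11 (against 4.41% of all genes) and 2 as lower (against 5.29%). At day 0, 0 passed as higher (against 9.17%) and 1 as lower (against 7.47%). Their median difference was -0.25 at day 0 and -0.20 at day 11. Lama1 and Lamb1, the alpha and beta chains of the laminin that early embryos make first, were lower in Nos3-/- embryoid bodies, and Lama5, the alpha chain of the laminin of most epithelia, was higher. At day 0, Lama2 was the 1 laminin gene that passed, lower in Nos3-/-.

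Lama1 ran from 5.43 (median 6.39) to 10.72 in control at day 0 and from 5.76 (6.88) to 7.38 in Nos3-/- at day 0. At day 11 it ran from 7.85 (9.74) to 12.91 in control and from 5.45 (7.76) to 8.43 in Nos3-/-. The day 11 groups overlapped, but 8 of the 9 control arrays lay above every Nos3-/- array. The difference at day 11 was -2.53 ± 0.72 (SE; 5.79-fold lower, adjusted p = 0.0197), and without replicate 3 of Nos3-/- it was -2.11 (adjusted p = 0.0549). Over time Lama1 rose by 3.15 ± 0.62 in control (8.89-fold, adjusted p = 0.000209), and in Nos3-/- the change was 0.82 ± 0.78 (adjusted p = 0.45). The difference between these 2 changes was -2.33 ± 1.00 and did not pass (adjusted p = 0.229, 95% interval -4.38 to -0.29).

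Lamb1 ran from 11.57 (median 11.86) to 12.60 in control and from 11.10 (11.36) to 11.94 in Nos3-/- at day 0, and from 11.57 (12.11) to 13.72 and from 10.66 (11.59) to 11.88 at day 11. Of the 9 control arrays at day 11, 6 lay above all Nos3-/- arrays, and 2 of the 6 Nos3-/- arrays lay below all control arrays. Its difference at day 11 was -0.80 ± 0.23 (SE; 1.74-fold, adjusted p = 0.0271), with the same sign on all 3 other probe sets of the gene, from -0.85 to -1.03. The call ended without control replicate 8 (-0.72, adjusted p = 0.0584) and without Nos3-/- replicate 3 (-0.63, adjusted p = 0.0782). Lamc1, the gamma chain that completes this laminin, differed by -0.68 ± 0.27 at day 11 and did not pass (adjusted p = 0.111), and it passed without control replicate 6 (-0.81, adjusted p = 0.0383). The other probe set of Lamc1 gave -0.19 at day 11 with all arrays.

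**Figure D1:**
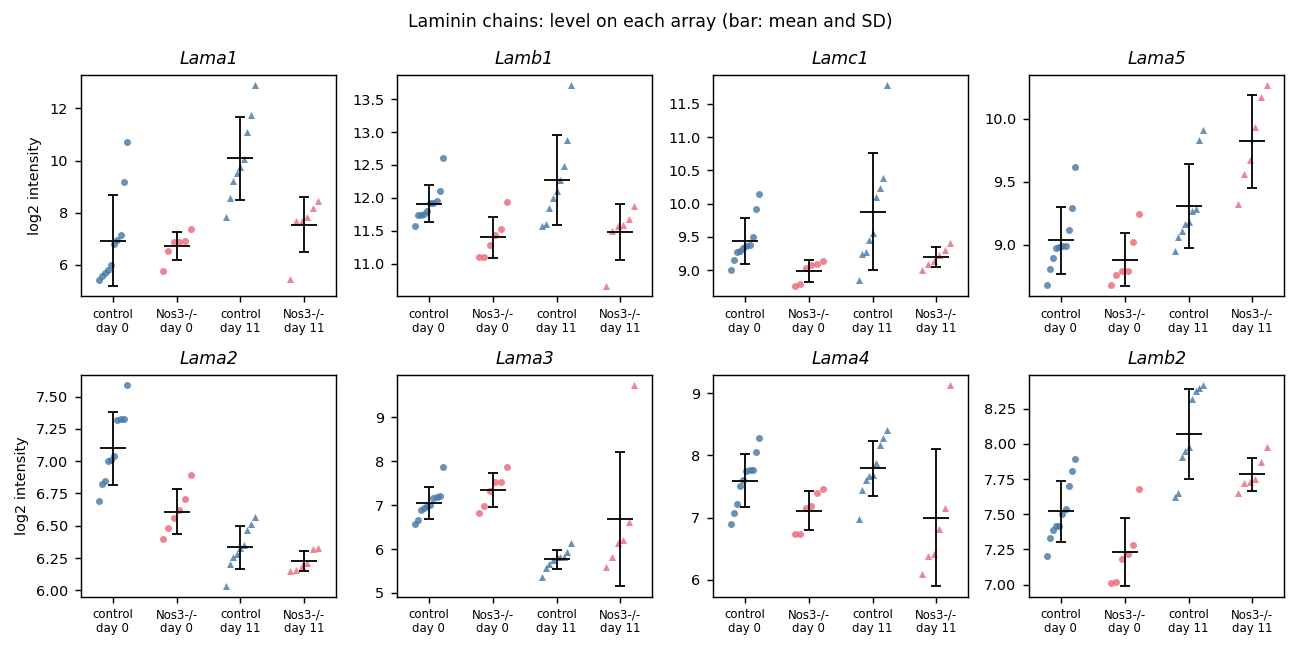
Log2 intensity of 8 laminin chains on each of the 31 arrays, by group (circles day 0, triangles day 11, blue control, red Nos3-/-), with the mean and SD of each group as bars. Lama1 lies between 7.85 and 12.91 in control at day 11 and between 5.45 and 8.43 in Nos3-/-, and 1 Nos3-/- array at day 11 is apart in Lama3 (9.74) and Lama4 (9.13).

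The 3 chains moved together across the 9 control arrays of day 11. By the visceral endoderm markers described below, these arrays fell into separate clusters of 6 and 3. No r between chains was taken within the 6, so how much of these values rests on the split was not tested. Pearson's r was 0.975 between Lama1 and Lamb1 (Spearman's rho 1.0, adjusted p = 7.72e-05), 0.935 between Lama1 and Lamc1 (rho 0.933, adjusted p = 0.00135) and 0.957 between Lamb1 and Lamc1 (rho 0.933, adjusted p = 0.00211), by exact permutation tests, two-sided, adjusted over 28 relations of 7 chain pairs in 4 groups. The unadjusted exact permutation p values were 2.76e-06, 9.65e-05 and 0.000226 for r and 5.51e-06, 0.00075 and 0.00075 for rho. Without the 2 arrays farthest from the median of the first gene, r was 0.975, 0.865 and 0.828. In control at day 0, Lama1 with Lamb1 (r = 0.835, rho 0.875, permutation test, adjusted p = 0.0333) and Lamb1 with Lamc1 (r = 0.862, rho 0.729, permutation test, adjusted p = 0.0181) also passed, and without the 2 farthest arrays r was 0.688 and 0.859. Of the integrin pairs, Itgav with Itgb5 (r = 0.78, rho 0.697, permutation test, adjusted p = 0.0294; 0.664 without 2 arrays) and Itga5 with Itgb1 (r = 0.712, rho 0.6, permutation test, adjusted p = 0.0377; 0.405 without 2 arrays) passed in control at day 0. In that group the adjusted p for rho passed for Lama1 with Lamb1 (0.0102, permutation test) and not for the other 3 pairs (0.0951 for Lamb1 with Lamc1, 0.123 for Itgav with Itgb5 and 0.208 for Itga5 with Itgb1, permutation tests). Without the 2 farthest arrays, 1 of the 7 relations that passed by r in the 2 control groups still passed. None of the 14 relations in the 2 Nos3-/- groups of 6 arrays passed by the exact permutation test. There, 0 had an unadjusted p under 0.05 for r and 1 for rho, Lama1 with Lamc1 at day 0 (rho -0.841, exact permutation p = 0.0444).

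Markers of the visceral endoderm, the outer layer of the embryoid body that secretes plasma proteins, were also lower in Nos3-/- at day 11. Of 13 such markers, 8 were lower (61.5%, against 5.29% of all genes) and 0 higher, and their mean level ran from 8.01 (median 9.12) to 11.30 in control and from 5.96 (7.86) to 8.05 in Nos3-/-. Among them, Afp ran from 7.35 to 13.67 in control and from 5.16 to 7.84 in Nos3-/-. The 9 control arrays fell into 6 with a marker mean up to 9.20 and 3 from 10.60 upwards, so r was taken within the 6. There it was 0.906 for Lama1 (rho 0.886, exact permutation p = 0.0222), 0.878 for Lamb1 (rho 0.886, exact permutation p = 0.0278) and 0.528 for Lamc1 (rho 0.486, exact permutation p = 0.272), unadjusted and chosen after the values were seen. In the other 3 groups none of the 9 relations of these markers with Lama1, Lamb1 and Lamc1 passed by permutation tests adjusted over 56 relations (adjusted p from 0.156 to 0.635), and unadjusted p was under 0.05 for 2 by r and 1 by rho. In control at day 0, r was 0.74, 0.815 and 0.689, and without 2 arrays 0.165, -0.101 and -0.226. In Nos3-/- it was -0.80, 0.618 and 0.326 at day 0 and 0.939, 0.895 and -0.327 at day 11, the last 3 being -0.087, -0.374 and 0.83 without 2 arrays.

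Markers of the parietal endoderm, the other endoderm layer that secretes laminin, were lower in Nos3-/- too. Of 11 such markers, 4 were lower and 0 higher on each day (36.4%, against 7.47% lower of all genes at day 0 and 5.29% at day 11). Gata6, a transcription factor of primitive endoderm, differed by -1.71 ± 0.47 (SE) at day 0 (adjusted p = 0.0133) and by -2.01 ± 0.48 at day 11 (adjusted p = 0.00542). The marker mean ran from 8.34 (median 8.83) to 9.74 in control and from 7.49 (7.80) to 8.82 in Nos3-/- at day 0, and from 8.31 (8.87) to 10.77 and from 7.01 (8.31) to 8.56 at day 11. Fewer endoderm cells of either kind and less of these RNAs per cell cannot be told apart in bulk arrays, and the part of cell makeup in the laminin differences was not tested.

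Lama5 ran from 8.68 (median 8.99) to 9.62 in control and from 8.68 (8.79) to 9.24 in Nos3-/- at day 0, and from 8.95 (9.18) to 9.91 and from 9.32 (9.80) to 10.27 at day 11. The Nos3-/- arrays of the 2 days did not overlap, and at day 11, 3 of the 6 Nos3-/- arrays lay above all control arrays. The rise in Nos3-/- was 0.94 ± 0.17 (SE; 1.92-fold, adjusted p = 0.000132) and that in control 0.27 ± 0.13 (adjusted p = 0.118), and the difference between the changes was 0.67 ± 0.22 and did not pass (adjusted p = 0.112). At day 11 Lama5 was 0.51 ± 0.15 higher in Nos3-/- (1.43-fold, adjusted p = 0.0284). That call ended without any 1 of control replicates 4, 8 or 9 or Nos3-/- replicates 1, 2 or 4 (adjusted p from 0.0511 to 0.0956).

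Lama2, the alpha chain of the laminin around muscle fibres, fell over time in both genotypes without overlap between days. It ran from 6.69 (median 7.03) to 7.59 in control and from 6.40 (6.59) to 6.89 in Nos3-/- at day 0, and from 6.03 (6.33) to 6.57 and from 6.15 (6.20) to 6.33 at day 11. At day 0, 4 of the 6 Nos3-/- arrays lay below all control arrays, and the difference was -0.49 ± 0.11 (SE; 1.40-fold, adjusted p = 0.00212). The fall over time was -0.77 ± 0.09 in control (adjusted p = 2.05e-07) and -0.38 ± 0.12 in Nos3-/- (adjusted p = 0.0139). The Nos3-/- call of Lama2 ended without the 3 arrays that stand apart (-0.31, adjusted p = 0.0883). With the mean of the fibroblast and feeder markers described below as a covariate, the Nos3-/- change was -0.02 ± 0.13 (adjusted p = 0.944), against -0.61 in control. Those markers moved both ways over time in control, so a fit with their mean does not hold fibroblast content equal between days.

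Lama3, an alpha chain of the laminin that anchors the epidermis, ran from 6.56 (median 7.00) to 7.87 in control and from 6.82 (7.43) to 7.87 in Nos3-/- at day 0. At day 11 it ran from 5.37 (5.81) to 6.13 in control and from 5.58 (6.17) to 9.74 in Nos3-/-, where replicate 3 alone exceeded 6.62. The fall in control was -1.28 ± 0.32 (SE; 2.43-fold, adjusted p = 0.00216), with no overlap between days. In Nos3-/- the change was -0.66 ± 0.40 (adjusted p = 0.216) with all arrays and -1.27 (adjusted p = 2.1e-05) without replicate 3 of day 11. The other probe set of Lama3 gave changes of -0.13 in control and -0.16 in Nos3-/- with all arrays. Its beta partner Lamb3 fell in control by 0.61 ± 0.16 (adjusted p = 0.0029) and changed by -0.14 ± 0.20 in Nos3-/- (adjusted p = 0.623). Lamb3 had a mean level among the dimmest 33.3% of all genes.

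Of the other laminin chains, Lamb2, a beta chain of mature basement membranes such as that of the kidney filter, rose by 0.55 ± 0.11 (SE) in control (adjusted p = 0.000246) and 0.55 ± 0.14 in Nos3-/- (adjusted p = 0.0034). Lama4, an alpha chain of blood vessel walls, differed by -0.79 ± 0.31 between genotypes at day 11 and did not pass (adjusted p = 0.105). Without replicate 3 of Nos3-/-, where it stood at 9.13 against at most 7.15 on the other 5 arrays, the Lama4 difference was -1.22 (adjusted p = 0.000316). The other probe set of Lama4, with a mean level of 3.97 against 7.44, gave 0.02 at day 11 with all arrays. Lamc3 passed in no comparison.

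The promoters of Lamb1 and Lama5 are printed because these chains moved in opposite directions between genotypes at day 11, and those of Itgav and Itgb5 because these 2 chains form 1 receptor and were both lower in Nos3-/- at day 0. Each window holds 250 bases before and 50 after the start of the gene, from RefSeq on build GRCm38.p6, written 5′ to 3′ on the strand of the gene, with GC boxes (GGGCGG, or CCGCCC on the other strand) and CCAAT boxes (CCAAT, or ATTGG) in capitals. The windows are Lamb1 at chr12:31265043-31265342 (plus strand), Lama5 at chr2:180225810-180226109 (minus strand), Itgav at chr2:83724147-83724446 (plus strand) and Itgb5 at chr16:33829415-33829714 (plus strand).
Lamb1: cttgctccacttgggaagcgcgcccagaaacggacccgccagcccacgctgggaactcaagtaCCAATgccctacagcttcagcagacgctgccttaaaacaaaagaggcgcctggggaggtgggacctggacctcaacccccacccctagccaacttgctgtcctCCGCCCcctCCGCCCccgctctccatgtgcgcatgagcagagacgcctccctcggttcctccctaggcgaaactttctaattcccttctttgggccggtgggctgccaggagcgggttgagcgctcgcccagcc
Lama5: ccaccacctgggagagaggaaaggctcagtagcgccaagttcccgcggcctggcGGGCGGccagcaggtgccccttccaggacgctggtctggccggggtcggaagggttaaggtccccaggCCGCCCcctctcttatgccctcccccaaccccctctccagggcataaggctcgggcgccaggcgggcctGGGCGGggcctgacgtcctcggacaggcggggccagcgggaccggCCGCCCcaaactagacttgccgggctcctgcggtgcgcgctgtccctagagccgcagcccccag
Itgav: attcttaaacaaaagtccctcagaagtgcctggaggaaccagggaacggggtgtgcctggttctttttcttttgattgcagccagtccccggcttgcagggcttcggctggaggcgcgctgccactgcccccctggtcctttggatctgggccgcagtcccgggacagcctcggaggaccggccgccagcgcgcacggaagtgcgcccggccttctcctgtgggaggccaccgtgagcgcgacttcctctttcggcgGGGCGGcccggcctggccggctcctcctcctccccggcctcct
Itgb5: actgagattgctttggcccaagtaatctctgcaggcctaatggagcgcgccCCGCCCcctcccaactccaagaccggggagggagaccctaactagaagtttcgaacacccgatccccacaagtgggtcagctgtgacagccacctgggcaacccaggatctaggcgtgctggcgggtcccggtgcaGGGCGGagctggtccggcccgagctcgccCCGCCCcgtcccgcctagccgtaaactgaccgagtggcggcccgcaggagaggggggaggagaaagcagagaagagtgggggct
Lamb1 held 2 GC boxes and 1 CCAAT box, Lama5 4 GC boxes, Itgav 1 and Itgb5 3. RefSeq windows were found for 22 of the 34 members, 25 windows in all, of which 12 held a GC box, against 35.7% of the 32851 promoters in the table, and 4 a CCAAT box, against 37.4%. The AP-1 motif TGANTCA (N for any base) stood in 3 member windows, against 7.81% of all promoters, and the GATA motif AGATAA in 1, against 11.2%. The TATA box TATAAA and the E box CACGTG stood in 0 of the 25, against 13.6% and 7.15%. Both strands were searched, and a match describes letters only. The RefSeq symbols without a window were those of Itga6, Itga7, Itgae, Itgal, Itgb2, Itgb3, Itgb4, Lama1, Lama3, Lama4, Lamc1 and Lamc3.

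Among integrins at day 0, Itgae was higher in Nos3-/- iPSCs, and Itga9, Itgav, Itgb5 and Itgb8 were lower. Itgae is the alpha chain of a receptor for E-cadherin best known from lymphocytes in epithelia. Itgav pairs with Itgb5 and with Itgb8, the first binding vitronectin and the second latent TGF-beta, and Itga9 binds tenascin-C. Only Itga9 had groups without overlap at day 0, 1 of 34 members against 1.92% of all genes, and at day 11 this held for 0 members against 2.60%.

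Itgae ran from 5.61 (median 6.04) to 6.36 in control and from 5.92 (7.24) to 8.86 in Nos3-/- at day 0, and from 5.67 (5.96) to 6.58 and from 5.61 (5.81) to 6.31 at day 11. At day 0, 5 of the 6 Nos3-/- arrays lay above all 10 control arrays, and they were spread over a wide range. The difference was 1.26 ± 0.26 (SE; 2.39-fold, adjusted p = 0.00135), and the other probe set of the gene gave 1.81. That SE rests on 1 spread shared by the 4 groups. The SD was 1.06 in Nos3-/- at day 0 and from 0.26 to 0.30 in the other groups, so the SE may be too small here. Under the alternatives run, the adjusted p reached 0.0486. In Nos3-/- it fell over time by 1.36 ± 0.29 (adjusted p = 0.000767), while the change in control was -0.03 ± 0.23 (adjusted p = 0.932). The difference between these changes was -1.33 ± 0.37 and did not pass (adjusted p = 0.0652). Of 10 markers of pluripotent cells, 3 were higher in Nos3-/- at day 0 (30.0%, against 9.17% of all genes) and 0 lower, and their mean ran from 10.33 (median 10.85) to 11.81 in control and from 9.69 (11.96) to 12.27 in Nos3-/-. In control, r between this mean and Itgae was 0.669 at day 0 and 0.708 at day 11. In Nos3-/- it was 0.714 and 0.823. None of these passed by permutation tests adjusted over 56 relations (adjusted p from 0.15 to 0.236). The unadjusted permutation p values were 0.0357, 0.0308, 0.11 and 0.0361, in that order. The part of these markers in the Itgae difference was not tested.

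Itga9 ran from 6.57 (median 6.81) to 7.26 in control and from 6.01 (6.10) to 6.38 in Nos3-/- at day 0, and from 6.56 (7.43) to 8.12 and from 6.06 (6.51) to 6.69 at day 11. Every Nos3-/- array at day 0 was below every control array, and at day 11, 8 of 9 control arrays were above every Nos3-/- array. The differences were -0.69 ± 0.16 at day 0 (SE; 1.61-fold, adjusted p = 0.00434) and -0.96 ± 0.16 at day 11 (1.94-fold, adjusted p = 0.00016). The 2 other probe sets of Itga9 gave -0.09 and -0.05 at day 0 and -0.15 and -0.11 at day 11, and the mean of all 3 did not pass at day 0 (-0.28, adjusted p = 0.0763). In control it rose over time by 0.57 ± 0.14 (adjusted p = 0.00243).

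Itgav ran from 11.20 (median 11.61) to 12.17 in control and from 10.66 (11.17) to 11.47 in Nos3-/- at day 0, and from 11.13 (11.52) to 11.78 and from 11.25 (11.45) to 11.94 at day 11. Day 0 groups overlapped, with 3 of the 6 Nos3-/- arrays below all control arrays. The difference at day 0 was -0.50 ± 0.14 (SE; 1.41-fold, adjusted p = 0.0141), and without Nos3-/- replicate 2 it was -0.41 (adjusted p = 0.0575). Its 4 other probe sets gave from -0.37 to 0.01 at day 0, and the mean over the 5 did not pass (-0.20, adjusted p = 0.0583).

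Itgb5 ran from 9.87 (median 10.07) to 10.98 in control and from 9.10 (9.71) to 10.06 in Nos3-/- at day 0, and from 9.96 (10.39) to 10.58 and from 9.98 (10.19) to 10.38 at day 11. At day 0, 5 of the 6 Nos3-/- arrays lay below all control arrays. The difference at day 0 was -0.63 ± 0.16 (SE; 1.54-fold, adjusted p = 0.00631), and the 3 other probe sets gave from -0.47 to -0.58. In Nos3-/- Itgb5 rose over time by 0.57 ± 0.17 (adjusted p = 0.0127), which did not pass as a mean of probe sets (0.38, adjusted p = 0.0674).

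Itgb8 ran from 5.40 (median 6.43) to 7.91 in control and from 4.64 (5.41) to 6.65 in Nos3-/- at day 0, and from 5.68 (6.31) to 7.10 and from 6.37 (7.09) to 7.44 at day 11. Nos3-/- arrays were the lower ones at day 0 and the higher ones at day 11, and the groups overlapped on both days. The difference was -0.91 ± 0.28 at day 0 (SE; 1.87-fold, adjusted p = 0.0267) and 0.63 ± 0.29 at day 11 (adjusted p = 0.19). In Nos3-/- Itgb8 rose over time by 1.43 ± 0.32 (2.70-fold, adjusted p = 0.00109), against -0.10 ± 0.25 in control (adjusted p = 0.785). The difference between the changes was 1.54 ± 0.40, with an adjusted p of 0.0504, and it passed in 7 of the 31 omissions of 1 array, namely control replicates 1, 6 and 9 and Nos3-/- replicate 3 of day 0, and control replicate 6 and Nos3-/- replicates 3 and 4 of day 11 (adjusted p from 0.011 to 0.0491). The day 0 call ended without Nos3-/- replicate 1 (-0.84, adjusted p = 0.0531), replicate 2 (-0.88, adjusted p = 0.0583) or replicate 5 (-0.73, adjusted p = 0.116).

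**Figure D2:**
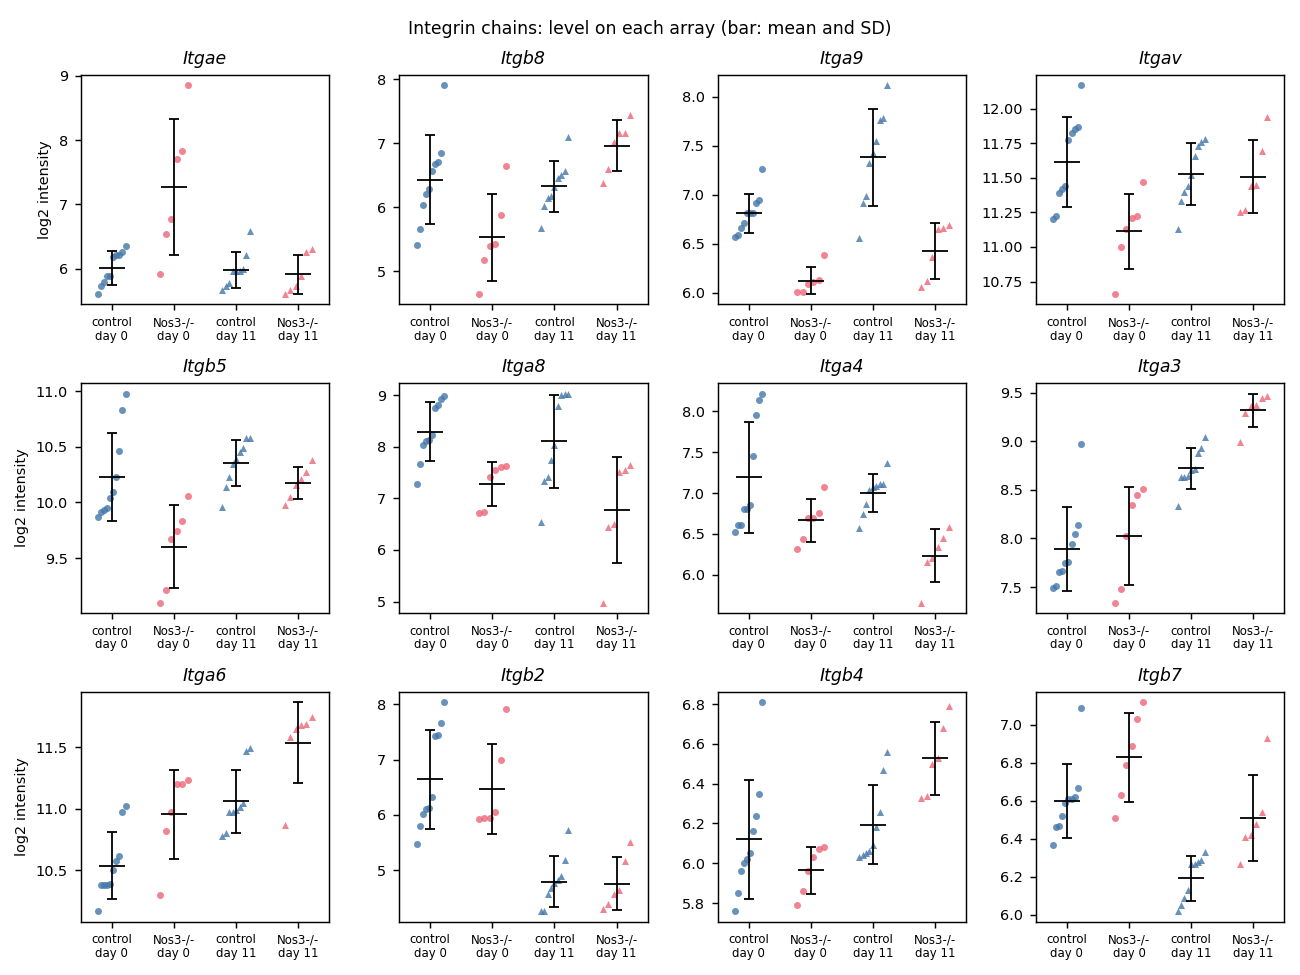
Log2 intensity of 12 integrin chains on each of the 31 arrays, by group (circles day 0, triangles day 11, blue control, red Nos3-/-), with the mean and SD of each group as bars. Itgae spreads from 5.92 to 8.86 in Nos3-/- at day 0 and lies between 5.61 and 6.58 in the other groups, and Itga9 does not overlap between genotypes at day 0.

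In Nos3-/- embryoid bodies at day 11, Itga3, Itga6 and Itgb7 were higher, and Itga4, Itga8 and Itga9 were lower. Itga3 and Itga6 are alpha chains of laminin receptors, Itga4 binds fibronectin and Vcam1 and can pair with Itgb7, and Itga8 binds nephronectin. At day 11, 6 of the 10 markers of pluripotent cells were higher in Nos3-/- (60.0%, against 4.41% of all genes) and 0 lower. Among 7 markers of simple epithelium, 2 were higher at day 11 (28.6%) and 0 lower. At day 0, 2 of these 7 were lower (28.6%, against 7.47%) and 0 higher. The part of either marker list in the day 11 differences was not tested. With the mean of the fibroblast and feeder markers as a covariate, 0 of the 34 members passed at day 11 and 1, Itgae, at day 0, against 4.31% and 4.13% of all genes. In that limma fit, 8 members at day 11 (23.5%, against 17.5% of all genes) and 9 at day 0 (26.5%, against 18.7%) had an unadjusted p under 0.05.

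The loss of these calls did not always go with a smaller difference, and at day 11 the standard errors of all 9 genes were larger in that fit. At day 11 the difference was larger for Lama1 (-2.92 ± 1.10, SE, adjusted p = 0.139), Itga6 (0.52 ± 0.23, adjusted p = 0.235) and Itgb7 (0.35 ± 0.155, adjusted p = 0.229) than without the covariate. It was smaller for Itga3 (0.46 ± 0.28, adjusted p = 0.431), Itga9 (-0.58 ± 0.24, adjusted p = 0.181), Lamb1 (-0.52 ± 0.36, adjusted p = 0.496), Lama5 (0.22 ± 0.23, adjusted p = 0.684) and Itga4 (-0.15 ± 0.32, adjusted p = 0.869), and Itga8 changed sign. At day 0, all of the lost calls had smaller differences of the same sign, with Itga9 at -0.50, Itgb5 at -0.50, Itgb8 at -0.68, Itgav at -0.31 and Lama2 at -0.29 (adjusted p from 0.0842 to 0.244). For the changes over time, 5 rose and 7 fell in control with the covariate (against 14.6% and 17.5% of all genes), and 9 rose and 1, Itgae, fell in Nos3-/- (against 11.7% and 15.5%).

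Itga3 ran from 7.49 (median 7.76) to 8.97 in control and from 7.34 (8.18) to 8.51 in Nos3-/- at day 0, and from 8.33 (8.70) to 9.04 and from 8.99 (9.37) to 9.46 at day 11. At day 11, 5 of the 6 Nos3-/- arrays lay above all control arrays. The difference at day 11 was 0.60 ± 0.18 (SE; 1.51-fold, adjusted p = 0.0336). It did not pass without any 1 of control replicates 2, 5 or 7 or Nos3-/- replicates 1, 2, 3, 4 or 6 (adjusted p from 0.0509 to 0.0675). Over time it rose by 0.83 ± 0.16 in control (adjusted p = 0.000147) and by 1.30 ± 0.20 in Nos3-/- (2.45-fold, adjusted p = 2.4e-05), where the days did not overlap. The 2 other probe sets of Itga3 gave 0.18 and 0.14 between genotypes at day 11, 0.31 and -0.07 over time in control and 0.47 and 0.03 in Nos3-/-. As a mean of the 3 probe sets, the values were 0.31, 0.36 and 0.60, and all passed (adjusted p = 0.035, 0.00113 and 0.000102).

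Itga6 ran from 10.17 (median 10.45) to 11.02 in control and from 10.30 (11.09) to 11.23 in Nos3-/- at day 0, and from 10.78 (10.99) to 11.49 and from 10.87 (11.67) to 11.74 at day 11. Apart from replicate 3, all Nos3-/- arrays at day 11 lay above all control arrays. The difference at day 11 was 0.48 ± 0.15 (SE; 1.39-fold, adjusted p = 0.0422), and it did not pass in 12 of the 31 omissions of 1 array, namely control replicates 1, 3, 4, 5, 6, 8 and 9 and Nos3-/- replicates 1, 2, 4, 5 and 6 (adjusted p from 0.0529 to 0.0991). At day 0 the difference was 0.41 ± 0.15 and did not pass (adjusted p = 0.0534). Over time Itga6 rose by 0.52 ± 0.13 in control (adjusted p = 0.00278) and by 0.58 ± 0.17 in Nos3-/- (adjusted p = 0.00891). Itgb4, its partner in the hemidesmosomes of epithelia, rose in Nos3-/- by 0.56 ± 0.13 without overlap between days (adjusted p = 0.00139) and differed by 0.34 ± 0.12 between genotypes at day 11 (adjusted p = 0.0669), which did not pass.

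Itgb7 ran from 6.37 (median 6.60) to 7.09 in control and from 6.51 (6.84) to 7.12 in Nos3-/- at day 0, and from 6.02 (6.27) to 6.33 and from 6.27 (6.45) to 6.93 at day 11. At day 11, 5 of the 6 Nos3-/- arrays lay above all control arrays. The difference was 0.32 ± 0.10 (SE; 1.24-fold, adjusted p = 0.0413) and did not pass without any 1 of control replicates 1, 2, 3 or 9 or Nos3-/- replicates 1, 4, 5 or 6 (adjusted p from 0.053 to 0.166). Over time it fell by 0.41 ± 0.09 in control, with no overlap between days (adjusted p = 0.000508). In Nos3-/- it fell by 0.32 ± 0.11 (adjusted p = 0.0265), a call that ended without day 0 replicate 1, 2 or 6 or day 11 replicate 1, 2 or 3 (adjusted p from 0.0508 to 0.072) and with the fibroblast covariate (-0.29, adjusted p = 0.156).

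Itga4 ran from 6.53 (median 6.83) to 8.22 in control and from 6.31 (6.70) to 7.08 in Nos3-/- at day 0, and from 6.57 (7.08) to 7.37 and from 5.66 (6.27) to 6.59 at day 11. At day 11, 5 of the 6 Nos3-/- arrays lay below all control arrays. The difference was -0.77 ± 0.23 (SE; 1.70-fold, adjusted p = 0.0281). It did not pass without control replicate 9 (adjusted p = 0.053) or Nos3-/- replicate 1 (adjusted p = 0.0539) or 4 (-0.65, adjusted p = 0.0991). The 4 other probe sets of Itga4 gave from -1.31 to 0.01 at day 11.

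Itga8 ran from 7.28 (median 8.18) to 8.98 in control and from 6.71 (7.48) to 7.62 in Nos3-/- at day 0, and from 6.55 (8.04) to 9.03 and from 4.98 (7.01) to 7.65 at day 11. At day 0, 9 of the 10 control arrays lay above all Nos3-/- arrays, and at day 11, 6 of the 9 did. The day 11 difference was -1.33 ± 0.38 (SE; 2.51-fold, adjusted p = 0.0232), and the day 0 difference of -1.02 ± 0.38 did not pass (adjusted p = 0.0615). The day 11 call ended without Nos3-/- replicate 2 (-1.28, adjusted p = 0.0505), 3 (-0.97, adjusted p = 0.0756) or 4 (-1.27, adjusted p = 0.0578).

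Markers of fibroblasts and feeder cells were also lower in Nos3-/-. Of the 17 markers, 11 were lower at day 11 (64.7%, against 5.29% of all genes) and 5 at day 0 (29.4%, against 7.47%), and 0 were higher on either day. Over time in control, 5 rose (29.4%, against 16.0%) and 7 fell (41.2%, against 18.2%). In Nos3-/-, 1 rose (5.88%, against 13.0%) and 11 fell (64.7%, against 18.1%). Since the markers moved both ways, their mean is not read as fibroblast content across days. Their mean ran from 8.62 (median 9.40) to 10.25 in control and from 7.86 (8.12) to 8.73 in Nos3-/- at day 11, and from 9.22 (10.29) to 10.62 and from 8.94 (9.43) to 9.92 at day 0. In control at day 11, the 4 arrays with a marker mean of 10.09 or more had Itga8 at 8.78 to 9.03, and the 5 with at most 9.40 had it at 6.55 to 8.04, so that no r is given over these separate clusters. Of the 56 relations of members with marker means, 9 passed by r, this one among them, and 4 passed without the 2 farthest arrays. In the other 3 groups the relation with Itga8 did not pass by permutation tests, with r at 0.343 in control at day 0 and at 0.695 and 0.373 in Nos3-/- at day 0 and day 11 (adjusted p from 0.27 to 0.56). The same marker mean was also set against Itgb1, Itgav, Itgb5, Itga4 and Itgb3 in every group. None of these relations passed by permutation tests (r from -0.087 to 0.838, adjusted p from 0.141 to 0.984). With this mean as a covariate the Itga8 difference at day 11 was 0.21 ± 0.46 (SE, adjusted p = 0.871).

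**Figure D3:**
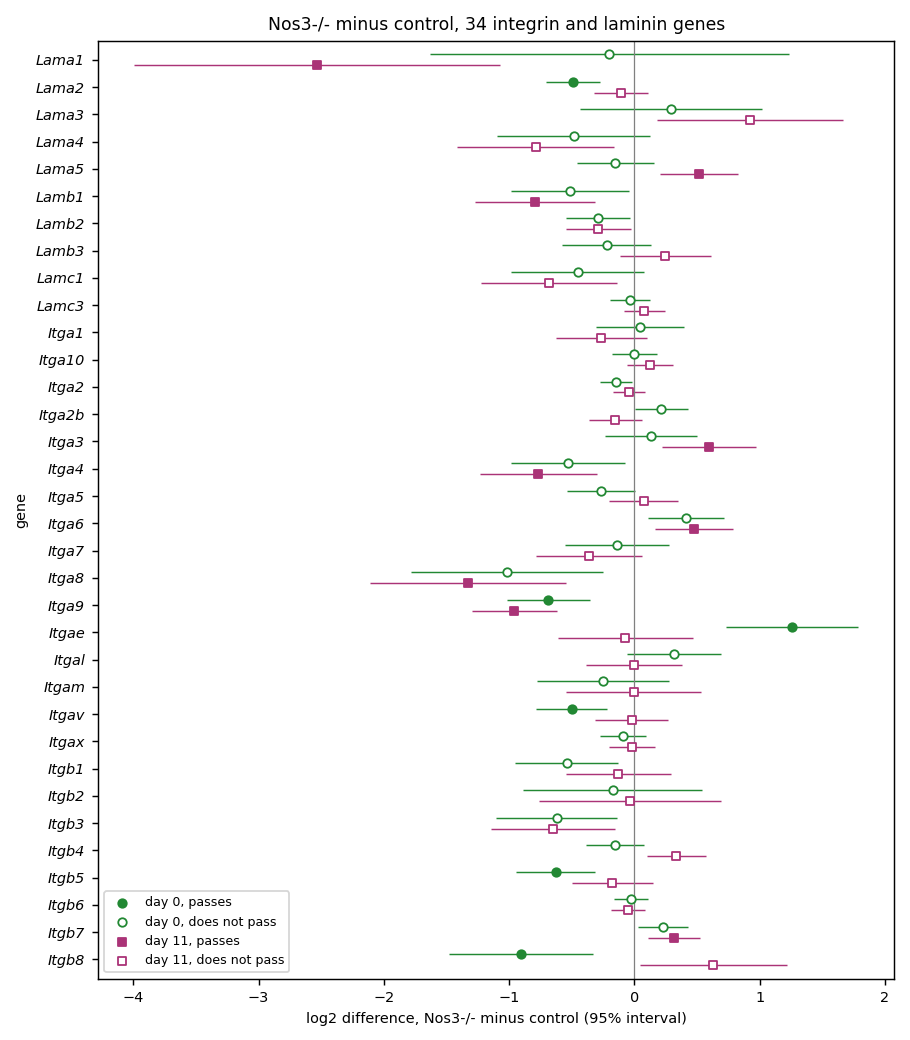
Log2 difference between Nos3-/- and control with its 95% interval for the 34 members, with day 0 as green circles and day 11 as purple squares, filled where the adjusted p was under 0.05. At day 0 1 filled point lies above 0 and 5 below, and at day 11 4 lie above and 5 below, with Lama1 at -2.53 the farthest.

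The beta chain of leukocytes, Itgb2, and its alpha partners Itgal and Itgam fell with time. Itgb2 ran from 5.48 (median 6.22) to 8.04 in control and from 5.93 (6.01) to 7.91 in Nos3-/- at day 0, and from 4.26 (4.76) to 5.73 and from 4.29 (4.61) to 5.51 at day 11. In Nos3-/- the days did not overlap, and in control 8 of the 9 day 11 arrays lay below all day 0 arrays. The fall was -1.85 ± 0.31 in control (SE; 3.59-fold, adjusted p = 2.68e-05) and -1.71 ± 0.39 in Nos3-/- (3.27-fold, adjusted p = 0.00151). Itgal fell by 0.56 ± 0.16 in control (adjusted p = 0.00839) and by 0.88 ± 0.21 in Nos3-/- (adjusted p = 0.00184). The other probe set of Itgal gave -0.15 and -0.11. Itgb2, Itgal and Itgam all had a mean level among the dimmest 33.3% of all genes. Itgam fell by 0.94 ± 0.23 in control (adjusted p = 0.00203), and its change of -0.69 ± 0.29 in Nos3-/- did not pass (adjusted p = 0.0679). Itgax, another alpha partner, passed in no comparison. With the fibroblast covariate, Itgb2 was at -1.63 in control (adjusted p = 0.000473) and did not pass in Nos3-/- (-1.19, adjusted p = 0.0914), and Itgal did not pass in either (-0.45, adjusted p = 0.0545, and -0.62, adjusted p = 0.0967).

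Of 12 markers of macrophages and other leukocytes, 12 fell over time in control (against 18.2% of all genes) and 11 in Nos3-/- (91.7%, against 18.1%). Their mean ran from 7.44 (median 8.17) to 9.66 in control and from 7.54 (8.08) to 9.73 in Nos3-/- at day 0, and from 5.96 (6.23) to 7.23 and from 5.88 (6.02) to 6.26 at day 11. At day 0, the 4 control arrays with a mean of 9.18 or more had Itgb2 at 7.42 to 8.04, and the 6 others, at most 8.24, had it at 5.48 to 6.32. In Nos3-/- the 2 arrays at 9.35 or more had it at 7.00 to 7.91 and the 4 others at 5.93 to 6.06. The part of these markers in the falls was not tested.

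Over time, 3 of the 34 members in control (Itgb7, Lama2 and Lama3) and 6 in Nos3-/- (Itga1, Itga3, Itgb2, Itgb4, Lama2 and Lama5) had days without overlap, against 6.52% and 7.83% of all genes, and 8 members passed in both genotypes (23.5%, against 18.0%). Itga1, a collagen receptor chain, fell by 0.53 ± 0.15 (SE) in control (adjusted p = 0.0079) and by 0.84 ± 0.19 in Nos3-/- (adjusted p = 0.0016). Its other probe set gave -0.10 and 0.03, and both calls ended with the fibroblast covariate (-0.32, adjusted p = 0.101, and -0.35, adjusted p = 0.278). Itga2, the other classical collagen receptor chain, fell by 0.17 ± 0.06 in control (adjusted p = 0.0186), and with that covariate the value was -0.13 (adjusted p = 0.0941). Itga5, the fibronectin receptor chain, fell by 0.43 ± 0.12 in control (adjusted p = 0.0059), a call lost with the gene's next probe set, used when probe sets ending _x_at or _s_at, which can read several transcripts, were dropped (-0.21, adjusted p = 0.334). Itgb1, the beta chain shared by most receptors of laminin, collagen and fibronectin, differed by -0.54 ± 0.20 between genotypes at day 0 (adjusted p = 0.0624) and by -0.13 ± 0.21 at day 11 (adjusted p = 0.804).

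**Figure D4:**
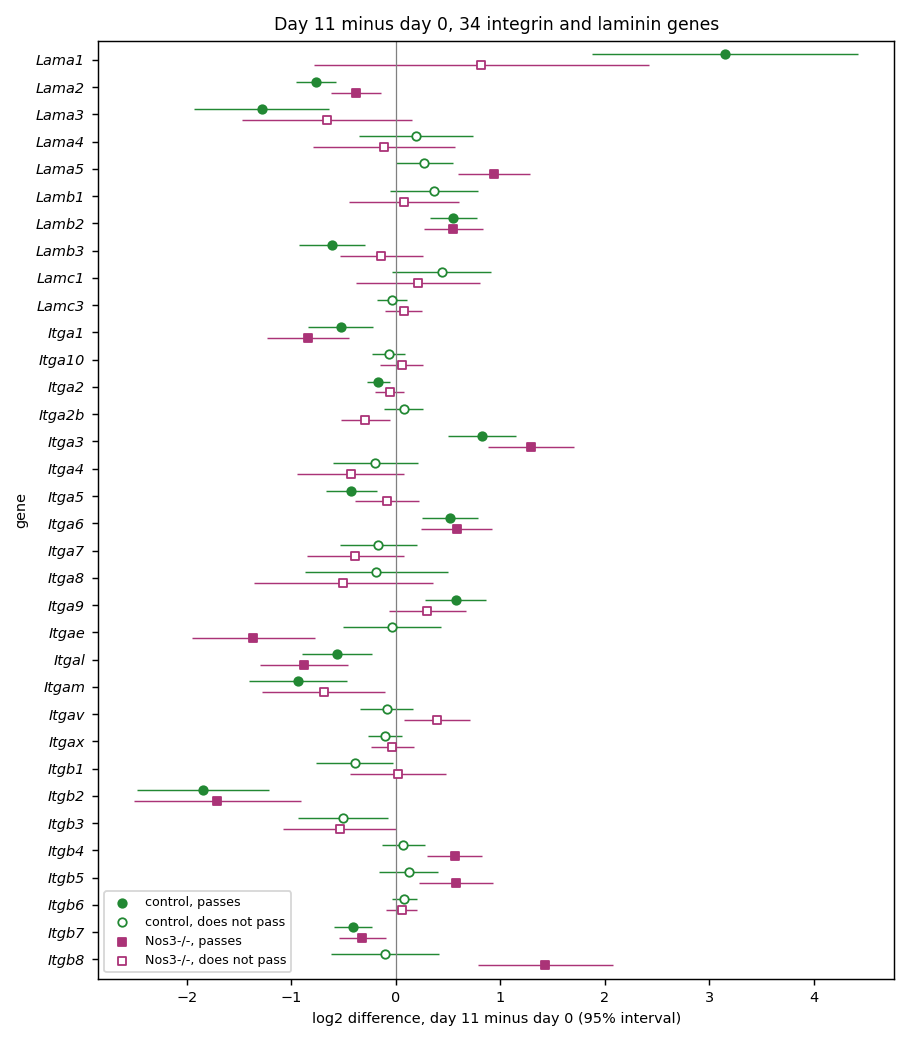
Log2 difference between day 11 and day 0 with its 95% interval for the 34 members, with control as green circles and Nos3-/- as purple squares, filled where the adjusted p was under 0.05. Lama1 is at 3.15 in control and 0.82 in Nos3-/-, Itgb8 at -0.10 and 1.43, and Itgb2 lies below -1.7 in both.

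No member passed for the difference between genotypes in the change over time, against 1.24% of all genes, and 8 had an unadjusted p under 0.05 (23.5%, against 17.0%). The closest were Itgb8 (adjusted p = 0.0504), Itgae (0.0652), Lama5 (0.112) and Itgb4 (0.49 ± 0.16, adjusted p = 0.123).

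Neighbouring genes of the adhesion system were counted over lists chosen for their role, without integrins and laminins. Of 21 basement membrane partners, such as collagen IV and nidogens, 11 rose over time in each genotype (52.4%, against 16.0% of all genes in control and 13.0% in Nos3-/-), and 2 fell in control (9.52%, against 18.2%) and 0 in Nos3-/- (against 18.1%). Fras1, a protein of the embryonic basement membrane, rose by 2.14 ± 0.16 (SE) in control and 2.55 ± 0.21 in Nos3-/-, and Npnt, the ligand of Itga8, by 2.37 ± 0.40 in Nos3-/-. Between genotypes 1 passed at day 0, as lower (4.76%, against 7.47%; Col4a1, -1.35 ± 0.39, adjusted p = 0.0187) and 1 at day 11, as higher (4.76%, against 4.41%; Frem2, 0.72 ± 0.19, adjusted p = 0.0125).

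Of 24 other integrin ligands, 6 were lower in Nos3-/- at day 0 (25.0%, against 7.47% of all genes) and 3 at day 11 (12.5%, against 5.29%), and 0 were higher on either day (against 9.17% and 4.41%). Those lower at day 11 included Postn, a ligand of Itgav receptors (-3.76 ± 0.39, SE, adjusted p = 3.66e-08), and Col1a1 (-2.91 ± 0.40, adjusted p = 6.7e-06). Both are also among the fibroblast markers. Tnc, the ligand of Itga9, was lower in Nos3-/- at day 0 (-1.22 ± 0.37, adjusted p = 0.0242). Of 13 laminin receptors other than integrins, 3 were higher in Nos3-/- at day 11 (23.1%, against 4.41%) and 0 lower (against 5.29%): Bcam, which binds the chain of Lama5 (0.90 ± 0.14, adjusted p = 3.23e-05), Sdc4 (0.74 ± 0.19, adjusted p = 0.00827) and Dag1, the dystroglycan gene (0.39 ± 0.10, adjusted p = 0.0109). Of 33 adaptors, signalling proteins and membrane partners of integrins, 7 were lower (21.2%, against 7.47%) and 0 higher (against 9.17%) at day 0, including Zyx (-0.85 ± 0.18, adjusted p = 0.00213) and Vcl (-0.76 ± 0.19, adjusted p = 0.00639). At day 11, 2 were lower (6.06%, against 5.29%), Dab2 (-1.88 ± 0.45, adjusted p = 0.00578) and Ilk (-0.51 ± 0.17, adjusted p = 0.0474), and 1 was higher (3.03%, against 4.41%), Ptk2b (0.44 ± 0.13, adjusted p = 0.0243).

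**Figure D5:**
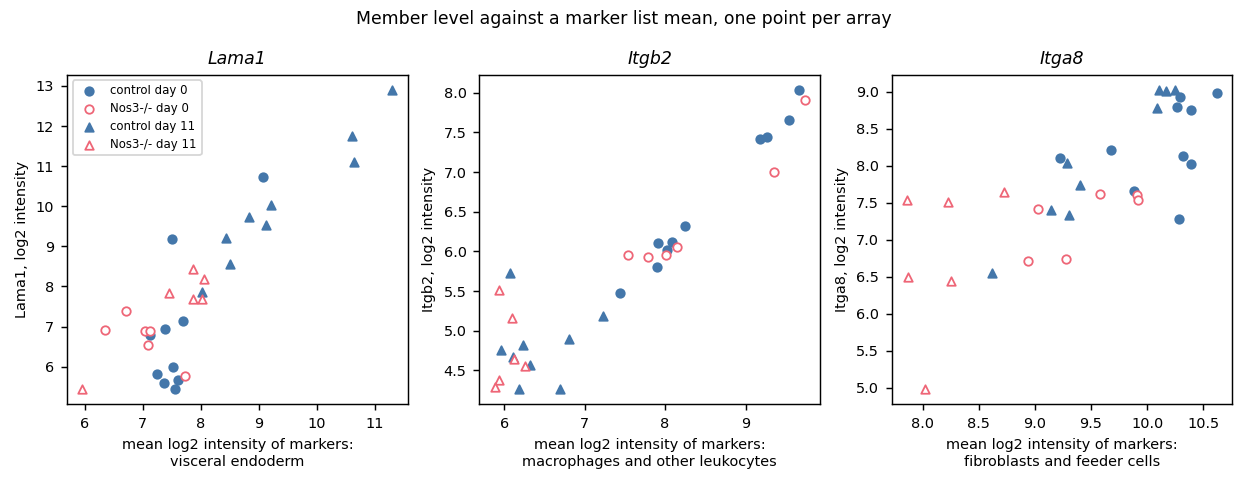
Level of Lama1, Itgb2 and Itga8 (log2 intensity, vertical) against the mean of a marker list (log2 intensity, horizontal: visceral endoderm, leukocytes, fibroblasts), 1 point per array, blue for control and red for Nos3-/-, circles for day 0 and triangles for day 11. Points of Lama1 reach 12.91 at a marker mean of 11.30 in control at day 11, and no Nos3-/- array at day 11 exceeds 8.05 in that mean.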

How the data were processed

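Per the labels' protocols, biotinylated cRNA of 31 samples was hybridized to Affymetrix arrays, and per the submitters' processing notes the authors summarized them with RMA, with no version given. The deposited values are log2 intensities, from 2.32 to 15.01, on 45101 probe sets, and array medians ran from 6.13 to 6.23. No batch or scan date is given in the sources used here. A single symbol was given for 34958 probe sets, more than 1 for 932 and none for 9211. The number of arrays limits the precision.

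The values were fitted as deposited in R 4.3.3 by limma 3.58.1, using 4 group means over all 31 arrays (27 residual degrees of freedom), and p-values were adjusted over 18194 genes. The fit was tested on simulated data. Correlations were taken within groups, with exact permutations or 100000 permutations at 10 arrays. Every member could be named. Ranges by group are given for members that passed between genotypes or changed by at least 1 over time, and up to 2 passing genes at either end of each list. Members and lists were chosen with earlier results of these data known. Alternatives were other normalizations, filters, probe sets, variance models, array weights, a replicate block, a fibroblast marker covariate and the omission of arrays. The 3 arrays that stand apart were chosen after seeing the data.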

Additional observations from a re-analysis of the deposited data

Results flagged for a closer look

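Of 136 tests of 1 member in 1 group, 17 found an array far from the others by Dixon's ratio, where chance alone flags about 5%. In Nos3-/- at day 11, replicate 3 held 6 of these, with Itga10 at 5.94 (the others at most 5.50), Lama3 at 9.74 (6.62) and Lama4 at 9.13 (7.15) above the rest. Itga6 at 10.87 (the others at least 11.58), Lama1 at 5.45 (7.69) and Lamb1 at 10.66 (11.50) were below. In control at day 0, replicate 10 held 5, all above the rest: Itga3 at 8.97, Itga7 at 7.58, Itgb3 at 8.68, Lama3 at 7.87 and Lamb3 at 7.21. The other 6 were Itgb7 in control day 0 replicate 9 (7.09), Lamb1 in control day 0 replicate 5 (12.60), Itga9 in Nos3-/- day 0 replicate 4 (6.38), Itga3 in Nos3-/- day 11 replicate 5 (8.99, below the rest), and Itga7 (6.30) and Lamc3 (5.93) in Nos3-/- day 11 replicate 6.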

How the results depend on the processing

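Of the members that passed, 1 of 6 at day 0 (Itgae), 0 of 9 at day 11, 11 of 15 over time in control and 7 of 13 over time in Nos3-/- kept their call under every alternative run. Omitting 1 array at a time, 4, 1 (Itga9), 15 and 12 kept it. The count of passing members was 6 at day 0, 9 at day 11, 15 and 13 over time and 0 for the difference between changes. At day 0 it was 12 with array weights, 11 without the 3 arrays that stand apart and 1 with the fibroblast covariate, and at day 11 it was 5 with only the arrays compared and 0 with the covariate. For the difference between changes it was 1 without the dimmest 33.3% of genes, 1 without probe sets ending _x_at or _s_at, 3 with array weights, 3 without the 3 arrays and 4 with the covariate. Omissions of 1 array gave 4 to 11 at day 0, 3 to 11 at day 11, 15 to 16 and 12 to 15 over time in control and Nos3-/-, and 0 to 3 for the difference between changes. Under the fibroblast covariate Itga8 at day 11 turned to 0.213 (adjusted p = 0.871). Of 7 passing chain correlations, 7 passed after quantile normalization and 1 without the 2 farthest arrays. The causes were not tested.

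Same-numbered arrays did not regularly deviate together. Their correlations ran from -0.274 to 0.352 between the genotypes at day 0 and from -0.21 to 0.143 at day 11. Between the days they ran from -0.239 to 0.271 in control and from -0.021 to 0.289 in Nos3-/-. A day 0 array was closest to the day 11 array of its own number in 2 of 9 control pairs and 1 of 6 Nos3-/- pairs. These values cannot show that the numbers do not link arrays, and the labels do not say whether they do. The numbers were not taken as pairs in the main fit. With the replicate number as a block, 6, 7, 15, 15 and 0 members passed. Signal over background could not be judged, since no detection calls were used here.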
